A study of Homo sapiens with 6 samples.

Results

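AsPC-1 is a human pancreatic ductal adenocarcinoma cell line, and the data described here are its transcriptome in the control state, after transfection with a negative control siRNA and no knockdown. The members are the 2 libraries of the siControl group, replicates 1 and 2, out of 6 libraries in 3 groups, and they are taken by their group label. The remaining libraries carry 1 of 2 siRNAs against HMOX1 (HMOX1si1 and HMOX1si2) and enter only where the gap between paired libraries is set beside theirs and in 1 alternative scaling (TMM over all 6 libraries). All cells were grown in RPMI1640 with 10% serum and transfected with the jetPRIME reagent, so the control libraries also carry whatever the reagent and a short RNA do to the cells, and no untransfected library is part of this description. The labels give 1 cell line with no clone, passage or transfection time, and nothing says that the 2 replicates were separate cultures, so the spread between them may be technical.

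Pancreatic ductal adenocarcinoma arises in the epithelium of the exocrine pancreas, and its cells are commonly placed between a classical state, with mucin and gut-like epithelial genes, and a basal-like state, with squamous keratins and loss of endoderm transcription factors. A cell line shows the tumour cells alone, without the fibroblasts, vessels and leukocytes that make up much of the tumour. Levels are given in counts per 1000000 (CPM), scaled by the trimmed mean of M values (TMM), to compare the 2 libraries, and per length, from the union of exons, in transcripts per 1000000 (TPM) to compare genes. Values written as 2 numbers are replicate 1 and then replicate 2, and ± is the SD with n = 2. A gene counts as expressed at a mean of at least 1 CPM with a count in both libraries, and as not detected at 0 counts in both. Any other gene counts as low, also one of at least 1 CPM with counts in 1 library only.

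The libraries held 36.1 and 45.1 M counts, with 14999 and 15074 genes above 0. Of 20263 genes, 12244 were expressed (60.4%), 3377 were low (16.7%) and 4642 were not detected (22.9%). Counts of expressed list members below are to be read against this share of 60.4%. The median expressed gene stood at 31.1 CPM and 20.2 TPM. A count of 0 allows a level of up to 0.0830 CPM in replicate 1, 0.0666 CPM in replicate 2 and 0.0369 CPM in both pooled, taking 3 counts as the limit, which covers counting error only. If each fragment was counted 2 times, 3 fragments are 6 counts and these levels become 0.166, 0.133 and 0.0739 CPM.

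The label was checked against 10 markers of ductal epithelium. Of these, 8 were expressed, and CFTR, a chloride channel, had 0 counts in both libraries. KRT8, KRT18 and KRT19, the keratins of simple epithelium, stood at 5758 and 6559 CPM, 2693 and 3135 CPM and 3278 and 3703 CPM. EPCAM, an epithelial adhesion molecule, stood at 659 and 681 CPM, MUC1, a membrane mucin, at 398 and 454 CPM, CDH1 (E-cadherin) at 90.4 and 74.4 CPM, SOX9, a duct and progenitor transcription factor, at 69.2 and 65.7 CPM and KRT7 at 26.9 and 31.1 CPM. The markers describe an epithelial cell with ductal keratins in which the duct channel CFTR was not detected at this depth.

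A small number of transcripts made up much of each library. The 13 protein-coding genes of the mitochondrial genome took 6.42% and 7.20% of the counts, and the 81 cytosolic ribosomal protein genes took 5.13% and 5.72%. KRT8, KRT18 and KRT19 alone took 1.18% and 1.33%. The 100 highest genes by CPM held 21.97% and 23.2% of the counts, and the 1000 highest held 53.3% and 54.5%. In CPM the highest genes were MT-CO1, a subunit of cytochrome oxidase, at 18932 and 21114 CPM, MT-ND4 at 10418 and 11804 CPM and the elongation factor EEF1A1 at 9314 and 9759 CPM. Long transcripts rank lower per length than in CPM, such as HSPG2 (perlecan), with 2568 CPM and 479.6 TPM.

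Per length, the highest nuclear transcripts were those of iron storage, actin binding, translation and simple epithelium. FTH1 and FTL, the heavy and light chains of ferritin, stood at 9656 and 10537 TPM and 7335 and 7674 TPM, and they ranked 1 and 3 among nuclear genes. TMSB10, an actin-binding thymosin, stood at 8850.3 and 9370.3 TPM, and HMGA1, a chromatin protein abundant in embryonic and tumour cells, at 5489 and 5733 TPM. KRT19 stood at 4891 and 5161 TPM, GAPDH at 4448 and 4743 TPM, and S100A4, a calcium-binding protein linked to cell motility, at 4814 and 3808 TPM. S100A4 was lower in replicate 2, whereas FTH1, TMSB10, FTL, HMGA1, KRT19 and GAPDH were higher there. ARPC1B and ARPC1A, subunits of the ARP2/3 complex that branches actin filaments, stood at 3833 and 3869.9 TPM and 3184 and 3079 TPM, above the actin gene ACTB (3226 and 3386 TPM) in the first case and close to it in the second. ALDH1A3, a retinaldehyde dehydrogenase, reached 3258 and 3071 CPM and 1850.1 TPM. With the longest transcript in place of the union of exons, 22 of the 25 highest nuclear genes per length stayed in that set. Genes with many processed pseudogenes (ferritin, EEF1A1, ribosomal proteins, keratins 8 and 18) may share reads with them. Exons of KRT8 and KRT18, which lie on opposite strands, overlap in position in the annotation. Here and below, genes are said to share an exon where their exons overlap in position, whatever the strand.

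**Figure D1:**
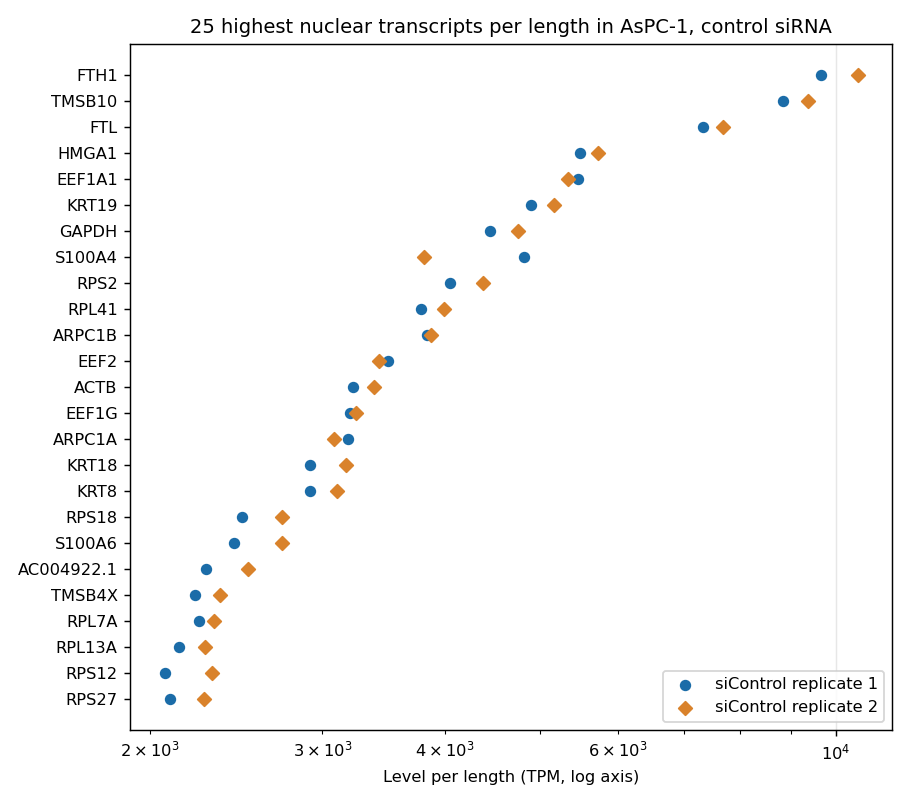
Level per length (TPM, log axis) of the 25 highest nuclear genes in each control library, ordered by mean; circles are replicate 1 and diamonds replicate 2. FTH1, TMSB10 and FTL lead, and most genes sit slightly higher in replicate 2, with S100A4 the other way (4814 and 3808 TPM).

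The keratin genes split by type. Of the simple and ductal keratins 6 of 7 were expressed, and KRT20, a gut keratin, was low (0.686 and 1.03 CPM). Of the stratified and basal keratins 5 of 15 were expressed, at a list median of 0.192 TPM against 151 TPM for the simple keratins and 4.81 TPM over all genes. The squamous pair KRT5 and KRT14 stood at 0 and 0.224 CPM and 0.192 and 0.134 CPM, KRT17 at 0.220 and 0.134 CPM and KRT6A at 0.0549 and 0 CPM, all low, whereas KRT16 was expressed at 11.9 and 14.7 CPM and KRT10 at 26.4 and 31.99 CPM. Squamous keratins were thus low next to the simple keratins, with KRT16, KRT15 and KRT10 as the exceptions above 10 CPM.

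Adhesion genes of epithelium were expressed in 21 of 25 cases, with gaps in places where an epithelial cell usually has a transcript. JUP (plakoglobin) stood at 1166 and 1409 CPM, ST14, the membrane protease matriptase, at 1028 and 1079 CPM, and its inhibitor SPINT2 at 379.6 and 403 CPM. GRHL2, a transcription factor of epithelial junction genes, had 0 counts in both libraries. RAB25, an epithelial RAB GTPase, had counts of 2 and 0. The splicing regulators ESRP1 and ESRP2 were expressed at 39.8 and 28.2 CPM and 12.98 and 13.4 CPM. Of the claudins, the strand proteins of tight junctions, 9 of 18 were expressed (50%, against 60.4% of all genes). CLDN4 led with 734 and 847 CPM, and CLDN18, the stomach claudin that is an antibody target, had 0 counts. Of the desmosome genes 11 of 14 were expressed, led by DSG2 (433 and 363 CPM), PKP3 (170.4 and 193 CPM) and DSP (318 and 252 CPM), whereas the epidermal members DSG1 (0 and 0.112 CPM) and DSC1 (0.137 and 0 CPM) were low. Of the integrins 15 of 25 were expressed (60%, against 60.4% of all genes). ITGB4, a subunit of the hemidesmosome, stood at 2296 and 2287 CPM, ITGB1 at 1384 and 1255 CPM, ITGA3 at 451 and 468 CPM and ITGA6 at 339.6 and 254 CPM.

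Genes named for the mesenchymal state ranged from among the highest in the library to undetected. VIM (vimentin, the intermediate filament of mesenchymal cells) stood at 962 and 1047 CPM, TGFBI at 439 and 535 CPM, and S100A4 led the list per length. SNAI2, a repressor of E-cadherin, was expressed at 33.4 and 33.1 CPM and ZEB1 at 18.2 and 18.03 CPM. CDH2 (N-cadherin), TWIST1, TWIST2 and MMP2 had 0 counts in both libraries, FN1 (fibronectin) stood at 0.329 and 0.224 CPM and ZEB2 at 0.329 and 0.403 CPM. In total 11 of 20 of the list were expressed (55%, against 60.4% of all genes) and 4 were not detected. CDH1 and VIM were therefore both present, with a per-length level of 45.1 TPM for CDH1 and 656 TPM for VIM. Bulk RNA cannot tell whether the same cells carry both.

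**Figure D2:**
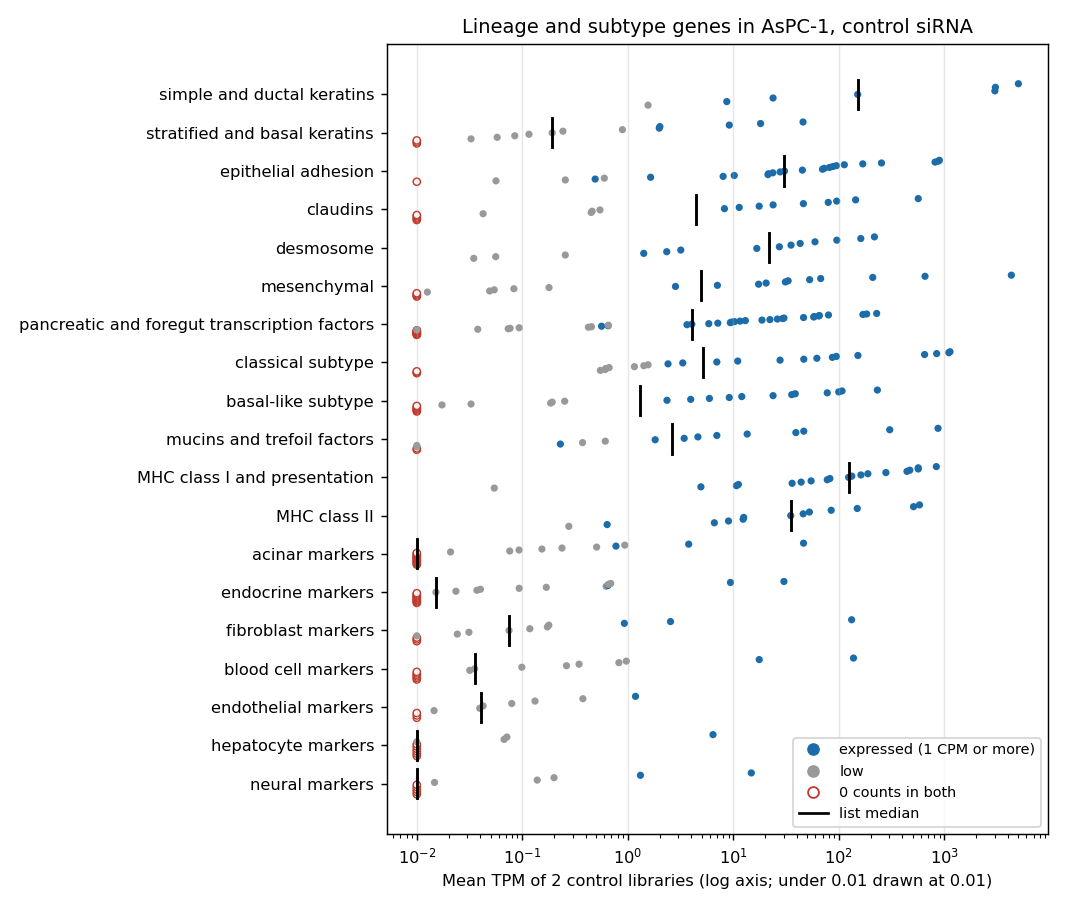
Mean level per length (TPM, log axis) of each gene in 19 lists, 1 point per gene, with the list median as a black bar; blue points are expressed genes, grey are low and open red circles have 0 counts in both libraries. Simple keratins, MHC class I and MHC class II genes have medians of 151 TPM, 124 TPM and 34.98 TPM, whereas the acinar, hepatocyte and neural medians are under 0.01 TPM.

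Transcription factors of gut and pancreas ranged widely in level, and most endocrine and acinar factors were low or at 0. Of this list 25 of 43 were expressed (58.1%, against 60.4% of all genes) and 10 were not detected. The epithelial factors ELF3 (467 and 509 CPM), EHF (273 and 201 CPM), KLF5 (199 and 191 CPM) and KLF4 (85.01 and 88.1 CPM) led. GATA6, which marks the classical state, stood at 70.5 and 65.6 CPM, HNF4A at 43.2 and 37.7 CPM, NR5A2 at 68.8 and 62.7 CPM and PDX1, the pancreas master factor, at 15.8 and 17.2 CPM. CDX2, the homeobox factor of intestinal epithelium, stood at 78.9 and 78.7 CPM, above GATA6 and PDX1 per length (64.4 TPM, 58.2 TPM and 22.2 TPM), and its paralogue CDX1 had 0 counts. FOXA1 and FOXA3 were expressed (13.1 and 11.1 CPM and 3.43 and 4.21 CPM), whereas FOXA2 had counts of 4 and 0. SOX2, NKX6-1, PTF1A, NEUROG3, NEUROD1 and PAX4 had 0 counts, and ISL1, an islet and gut factor, was expressed at 25.5 and 26.1 CPM. HNF4G, at 26.2 and 10.3 CPM, differed more than 2-fold between the libraries, as did 2.01% of all genes of at least 1 CPM.

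The HOX genes, which give cells their position along the body axis and lie in 4 clusters, were read after their values were seen. All 11 HOXA genes, all 9 HOXC genes and 9 of 10 HOXB genes in the table were expressed, and all 9 HOXD genes had 0 counts in both libraries. HOXB8 was the highest per length, at 120 and 119.8 TPM, followed by HOXB6 (117 and 52.8 TPM), HOXB2 (76.9 and 76.9 TPM) and HOXB7 (75.7 and 68.1 TPM). In the HOXA cluster HOXA3 led with 64.3 and 61.6 TPM, and the posterior members HOXA10, HOXA11 and HOXA13 stood at 40.04 and 33.03 TPM, 27.7 and 25.99 TPM and 31.3 and 24.9 TPM. HOXC10 led its cluster with 56.8 and 49.8 TPM, and HOXB13, the most posterior gene of its cluster, stood at 22.5 and 22.6 TPM. HOXB1, the most anterior HOXB gene, had 0 counts. HOXA, HOXB and HOXC were thus expressed along nearly their whole length and HOXD along none of it. EVX2, beside HOXD13, was also at 0, and the run of 11 adjacent genes from EVX2 to HOXD1 covers chromosome 2, 176077472 to 176190907 (GRCh38), with no count in either library. HOX gene models share exons in places (HOXB3 with HOXB4 and HOXB6, HOXC6 with HOXC4 and HOXC9), so the levels of those genes may be divided between models. HOXA6, HOXB6, HOXC5 and HOXC6 differed more than 2-fold between the libraries, as did 2.01% of all genes of at least 1 CPM. The means of HOXA6, HOXC5 and HOXC6 (1.28, 1.66 and 9.15 CPM) lay between 1 and 10 CPM, where 3.81% of genes did.

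**Figure D3:**
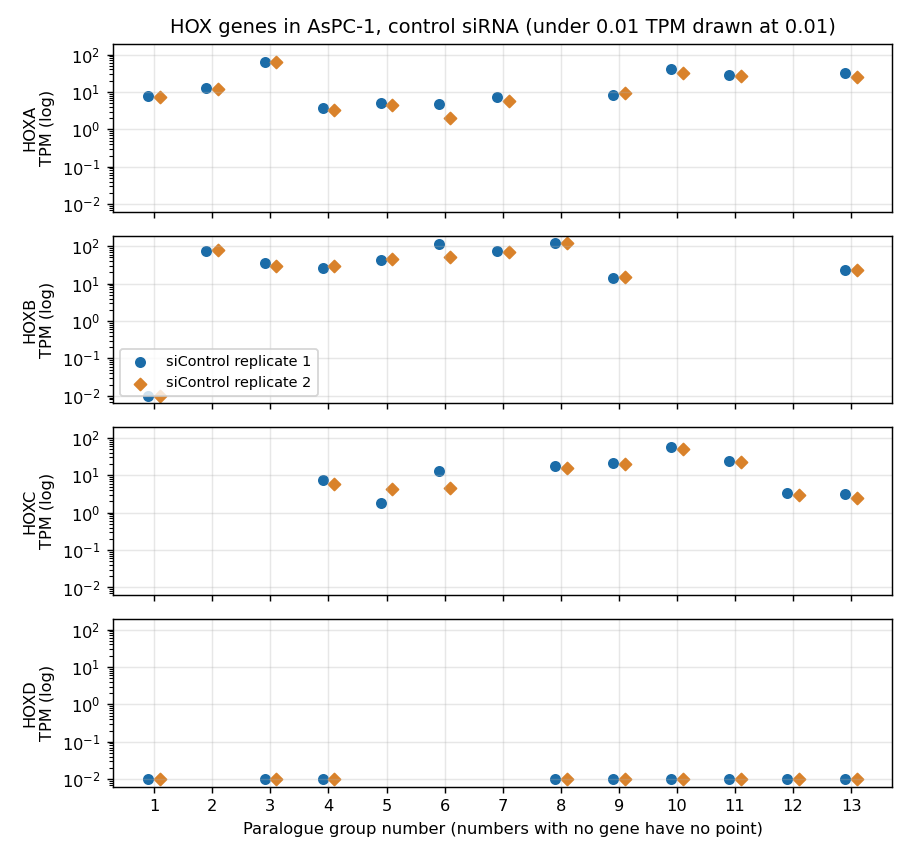
Level per length (TPM, log axis) of each HOX gene by paralogue number, 1 panel per cluster, with circles for replicate 1 and diamonds for replicate 2. All HOXD genes and HOXB1 lie at the drawn minimum because they had 0 counts, and the 2-library means of the other HOX genes lie between 2.80 TPM and 119.9 TPM.

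Of the classical subtype list 14 of 24 genes were expressed (58.3%) and of the basal-like list 12 of 24 (50%), against 60.4% of all genes. The list medians were 5.14 TPM and 1.30 TPM. The median over all genes was 4.81 TPM, close to that of the classical list and above that of the basal-like list. Within each list the members were far apart. CEACAM6, a carcinoembryonic cell-surface glycoprotein, stood at 984 and 1066 CPM, LGALS4, an intestinal galectin, at 826 and 906 CPM, TSPAN8, a tetraspanin, at 614 and 650.4 CPM, and CDH17, the intestinal cadherin, at 783 and 718 CPM. AGR2, which folds mucins, stood at 121 and 136 CPM and LYZ at 38.4 and 52.9 CPM. At the other end TFF1 stood at 0.110 and 0.0895 CPM, CTSE at 0.329 and 0.738 CPM and REG4 at 0.713 and 0.559 CPM, and ANXA10, AGR3 and FAM3D had 0 counts. The basal-like list was led by TNS4, a focal adhesion protein (329 and 338 CPM), SLC2A1, a glucose transporter (126 and 176 CPM), FGFBP1 (38.3 and 42.3 CPM) and FAM83A (169 and 120.1 CPM). VGLL1, LY6D, SPRR1B, SPRR3, SERPINB3 and SERPINB4, its squamous members, had 0 counts. LGALS4 and CDH17, near the top of the classical list, are known from intestinal epithelium, and of the trefoil factors of gastric mucus TFF1 was low while TFF2 was expressed at 11.6 and 11.3 CPM.

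Of the mucins and trefoil factors 10 of 16 were expressed, led by membrane mucins. MUC13, a membrane mucin of the gut, stood at 892 and 916 CPM, MUC1 at 304 TPM per length, MUC17 at 197 and 139 CPM and MUC3A at 36.8 and 55.1 CPM. The secreted gastric mucins MUC5AC and MUC6 stood at 0 and 0.0895 CPM and 0.631 and 1.25 CPM, and MUC16, which carries the CA125 antigen, had counts of 4 and 0. MUC4 was expressed at 25.5 and 17.5 CPM. Large mucin genes hold repeats in which short reads are hard to place, so their levels are uncertain.

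In the carcinoembryonic antigen family CEACAM6 and CEACAM1 (380 and 379.8 CPM) held nearly all of the signal, and CEACAM5, which encodes the serum marker CEA, stood at 5.02 and 6.02 CPM. Reads may be shared among these near-identical paralogues. Among the S100 genes S100A4, S100A6 (679 and 813 CPM), S100A11 (404 and 464 CPM) and S100A10 (382 and 434 CPM) were high, S100P, often abundant in pancreatic cancer, was at 4.12 and 5.48 CPM, and S100A8, S100A7 and S100A12 had 0 counts. ALPG and ALPP, placental-type alkaline phosphatase genes of near-identical sequence, stood at 225 and 248 CPM and 175 and 185 CPM, whereas ALPL, the tissue-nonspecific gene, had 0 counts. Of other surface antigens used as targets, MSLN (mesothelin) stood at 137 and 150.5 CPM, PSCA at 66.6 and 76.6 CPM, CD44 at 324 and 302 CPM, CD276 at 27.9 and 45.5 CPM, and CD274 (PD-L1) at 0.247 and 0.201 CPM.

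Receptor genes of growth signalling were led by EGFR. EGFR stood at 1960.3 and 1559 CPM, ERBB3 at 459.7 and 440.2 CPM, ERBB2 at 118 and 106 CPM, and ERBB4 had 0 counts. Of their ligands AREG (18.4 and 19.4 CPM), HBEGF (30.98 and 29.8 CPM), TGFA (31.3 and 30.3 CPM) and EREG (24.6 and 23.1 CPM) were expressed and NRG1, NRG3 and EPGN had 0 counts. MET, the receptor of hepatocyte growth factor, stood at 755 and 673 CPM, EPHA2 at 465 and 463 CPM, AXL at 256 and 255 CPM and MST1R at 115 and 119.9 CPM. Of the other receptor tyrosine kinases 23 of 41 were expressed (56.1%, against 60.4% of all genes), and RET, ALK, NTRK3, MUSK, INSRR and TEK had 0 counts. The 4 ligands named as expressed all bind EGFR. The neuregulins, ligands of other ERBB receptors, were at 0 or low apart from NRG4 (4.99 and 4.005 CPM).

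Of 31 genes known from recurrent alterations in pancreatic cancer 30 were expressed and 1, MAP2K4, was not, with counts of 2 and 0. SMAD4, a signal carrier of the TGF-beta pathway, stood at 24.7 and 19.8 CPM. CDKN2A and its neighbour CDKN2B, inhibitors of the cell cycle kinases CDK4 and CDK6, stood at 171 and 183 CPM and 116 and 111 CPM, and MTAP beside them at 30.02 and 24.2 CPM. TGFBR2 stood at 646 and 316 CPM and TGFBR1 at 8.48 and 4.005 CPM, both more than 2-fold lower in replicate 2. The same held for 1.15% of all genes of at least 1 CPM. RNA level says nothing of the alleles carried.

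Proliferation genes were on. Of the DNA replication and mitosis list 42 of 43 were expressed, at a median of 52.2 TPM, with MKI67 at 330 and 263 CPM, TOP2A at 214 and 181 CPM, PCNA at 93.5 and 109.6 CPM and CCND1 at 466 and 433 CPM. CCND2 was the 1 member at 0 counts. Of the immediate early genes 28 of 30 were expressed, among them the ERK phosphatases DUSP6 (273 and 389 CPM) and DUSP4 (237 and 227 CPM) and the AP-1 member FOSL1 (72.6 and 64.03 CPM), while FOS stood at 10.9 and 11.8 CPM and MYC at 5.52 and 7.23 CPM. Of the 28 expressed immediate early genes 3 differed more than 2-fold between the libraries, against 2.01% of all genes of at least 1 CPM. They were IER2 (62.1 and 205 CPM), FOSL2 (104 and 32.7 CPM) and ATF3 (9.33 and 3.40 CPM).

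HMOX1, the gene the study silences, encodes the inducible heme oxygenase that opens heme and frees its iron. In the control state its counts were 328 and 378, a mean of 8.73 ± 0.384 CPM and 12.2 TPM, below the median expressed gene. Its constitutive paralogue HMOX2 stood at 106 and 98.8 CPM and 91.1 TPM. Of the heme and NRF2 list 33 of 38 were expressed, at a median of 52.7 TPM. The NRF2 targets TXNRD1 (1947 and 1831 CPM), NQO1 (537 and 559 CPM), SRXN1 (168 and 167 CPM) and AKR1C3 (349 and 375 CPM) were high, as were the ferritins, while GCLM stood at 11.8 and 10.8 CPM. NFE2L2, which encodes NRF2, stood at 104 and 167 CPM, its inhibitor KEAP1 at 102 and 111 CPM and BACH1, a repressor of HMOX1, at 160.1 and 129 CPM. The AKR1C genes are near copies of each other and may share reads. Per length these 4 targets stood at 950.2 TPM, 567 TPM, 209 TPM and 269 TPM, far above HMOX1, and GCLM at 7.05 TPM was below it.

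Glycolytic transcripts came from a subset of the isoforms, with 24 of 34 of the list expressed. LDHA, the subunit of lactate dehydrogenase that favours lactate, stood at 764 and 757 CPM, and LDHB, its usual partner, had 0 counts in both libraries. GAPDH (4595 TPM), ENO1 (886 TPM), PKM (772 TPM) and ALDOA (752 TPM) led per length. Of the hexokinases HKDC1 was the highest per length, at 202 and 176 TPM, above HK1 (36.4 and 33.9 TPM) and HK2 (38.7 and 31.7 TPM). The glucose transporter SLC2A1 was expressed and SLC2A2, SLC2A3 and SLC2A4 were low. The lactate exporters SLC16A3 and SLC16A1 stood at 137 and 151 CPM and 80.9 and 83.8 CPM. CA9, a carbonic anhydrase induced by hypoxia, led the hypoxia list with 237 and 274 CPM, in which 18 of 22 were expressed. BNIP3 and LOX of the same list were low (0.549 and 1.23 CPM and 0.274 and 0.582 CPM). All 24 cholesterol synthesis genes were expressed, at a median of 55.1 TPM. Of the ATF4 targets 21 of 24 were expressed, with PSAT1 at 62.6 and 66.4 CPM and PHGDH, the enzyme before it in serine synthesis, at 1.10 and 1.16 CPM.

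Antigen presentation genes of both classes were expressed. Of the class I list 18 of 19 were expressed, with HLA-B at 114 and 127 CPM, HLA-C at 58.4 and 56.98 CPM and B2M, their shared light chain, at 334 and 346 CPM. Of the class II list 12 of 13 were expressed, although class II is best known from dendritic cells, B cells and macrophages. CIITA, the transactivator of class II genes, stood at 58.6 and 51.99 CPM, CD74, the invariant chain, at 512 and 589 CPM, HLA-DRA at 187 and 201 CPM and HLA-DMA at 59.8 and 67.7 CPM. HLA-DQA1 was at 1.23 and 1.39 CPM while its partner HLA-DQB1 was at 71.9 and 81.3 CPM. HLA genes vary between people, so levels read against 1 reference can be too low, and HLA-DRB1 and HLA-DRB5 may share reads. PTPRC (CD45), which marks leukocytes, and MS4A1, CD3D and CD3E of B and T cells had 0 counts in both libraries, and 13 of 15 blood cell markers were low or not detected. Interferon-stimulated genes were expressed in 31 of 37 cases, with IFITM3 at 337 and 391 CPM and OAS3 at 215 and 207 CPM, while IFNB1 had 0 counts.

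Of the secreted factors 25 of 47 were expressed (53.2%, against 60.4% of all genes). LCN2, an iron-siderophore carrier, stood at 525 and 765 CPM, MIF at 399 and 484 CPM and MDK (midkine) at 601 and 706 CPM, and these were the highest 3 per length (1353 TPM, 1337 TPM and 1000.4 TPM). LIF, a cytokine of the IL-6 family, stood at 213 and 211 CPM whereas IL6 had 0 counts. IL18 stood at 207 and 219 CPM and CXCL16 at 171 and 177 CPM, while CXCL8 was at 2.03 and 1.83 CPM and CCL2, CXCL12, CXCL14 and IL33 had 0 counts.

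Most markers of other cell types were low or not detected, with exceptions of which not all are named here. Of the fibroblast list 3 of 13 were expressed, at a median of 0.0749 TPM: LUM (lumican) stood at 121 and 115 CPM, COL1A1 at 2.88 and 2.51 CPM and ACTA2 at 2.22 and 2.26 CPM, whereas COL1A2, COL5A1 and POSTN had 0 counts and DCN stood at 0.576 and 0.313 CPM. Of the blood list CD68, a lysosomal protein of macrophages and other cells, stood at 87.01 and 91.8 CPM and CD14 at 9.71 and 9.98 CPM. Of the endothelial list ROBO4 alone was expressed (2.66 and 2.26 CPM), and of the hepatocyte list SERPINA1 alone (8.81 and 9.89 CPM). Of the acinar list 3 of 23 were expressed and 13 were not detected, among them CPA1, PNLIP and PRSS1. BHLHA15, the acinar factor MIST1, was the highest with 11.5 and 10.3 CPM. Of the endocrine list 3 of 23 were expressed and 11 were not detected, among them INS, SST and PPY. The highest level in that list was 30.2 TPM, above the median expressed gene. Of the neural list 2 of 10 were expressed and 5 had 0 counts. MBP, known from myelin but with forms outside nerve, stood at 83.03 and 80.4 CPM. In bulk RNA, fewer cells of a type and less RNA per cell cannot be told apart.

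Some gene families had no expressed member. None of 394 olfactory receptor genes, 94 keratin-associated protein genes and 29 late cornified envelope and small proline-rich protein genes was expressed. Nor was any of 62 MAGEA, MAGEB, MAGEC, GAGE, CT45 and CT47 genes. In these 4 sets 26, 16, 3 and 5 genes were low, and the rest were not detected. By contrast all 78 mitochondrial ribosomal protein genes and 38 of 40 proteasome subunit genes were expressed. Of 98 potassium channel genes 21 were expressed, led by KCNK1 (148 CPM), and of 519 zinc finger (ZNF) genes 368. These families were read after their values were seen. Along the chromosomes, 148 runs of at least 6 adjacent protein-coding genes had every member below 0.1 CPM, and they held 1559 of 19664 genes (7.93%). The longest run holds 48 genes of the epidermal differentiation complex, from FLG to S100A7 (chromosome 1, 152302175 to 153460701). A run of 14 genes from ZNF582 to DUXA (chromosome 19, 56375846 to 57167443) holds 11 zinc finger genes, among them the imprinted gene PEG3.

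On chromosome 7 the opposite pattern was found. Among 11882 windows of 15 adjacent expressed protein-coding genes, the highest median per length, 261 TPM, was that of the window from PDK4 to ARPC1A (chromosome 7, 95583499 to 99394653), against 20.03 TPM in the median window and 82.1 TPM at the 99th percentile. Within it LMTK2, a kinase, stood at 770.1 and 639 CPM, BAIAP2L1, an actin regulator, at 970.4 and 1017 CPM, TRRAP, a scaffold of histone acetyltransferases, at 2131 and 1743 CPM, and SMURF1, a ubiquitin ligase of the TGF-beta pathway, at 1769 and 1660.1 CPM. ARPC1A and ARPC1B stood at 1875 and 1941 CPM and 4386 and 4739.8 CPM. The 12 expressed genes from LMTK2 to PDAP1 took 1.46% and 1.46% of all counts, more than KRT8, KRT18 and KRT19 together. BHLHA15 and KPNA7 (10.6 and 11.2 CPM) lie in the same stretch. NPTX2 and TMEM130, in its middle, were near 0 (counts of 0 and 2 and 0 and 7), so the stretch was not high throughout. Beyond it BUD31 stood at 55.9 and 60.5 CPM and ZKSCAN5 at 22.6 and 21.2 CPM. Exons of several of these genes overlap in position. TRRAP with SMURF1, BRI3 with BAIAP2L1 and AC004922.1 with PDAP1 do so on opposite strands, and AC004922.1 with ARPC1A and ARPC1B on the same strand. With all genes that share exons in this sense left out, the highest window was another one on chromosome 7. It ran from POLM to IGFBP3 (44072247 to 45921874), at 127 TPM. Of genes in the stretch without a shared exon, LMTK2 stood at 261 TPM, TECPR1 at 77.99 TPM, BHLHA15 at 46.3 TPM and KPNA7 at 21.2 TPM.

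The silent kinase gene MAP2K4 lies in a silent run on chromosome 17. PIRT, SHISA6, DNAH9, ZNF18, MYOCD and ARHGAP44 around it had 0 counts in both libraries, which makes 7 adjacent genes over 10822475 to 12991643. On one side SCO1 stood at 42.6 and 40.9 CPM and ADPRM at 2.28 and 2.44 CPM, and on the other ELAC2 stood at 51.2 and 44.7 CPM. MAP2K4, a kinase of the JNK pathway, is widely expressed in human tissues, while MYOCD and DNAH9 are known from muscle and ciliated cells. On chromosome 9 the interferon genes next to MTAP were at or near 0 apart from IFNE (1.92 and 2.06 CPM), while KLHL9 among them stood at 21.5 and 19.8 CPM and CDKN2A and CDKN2B were expressed as given above. These stretches were chosen after the values were seen.

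**Figure D4:**
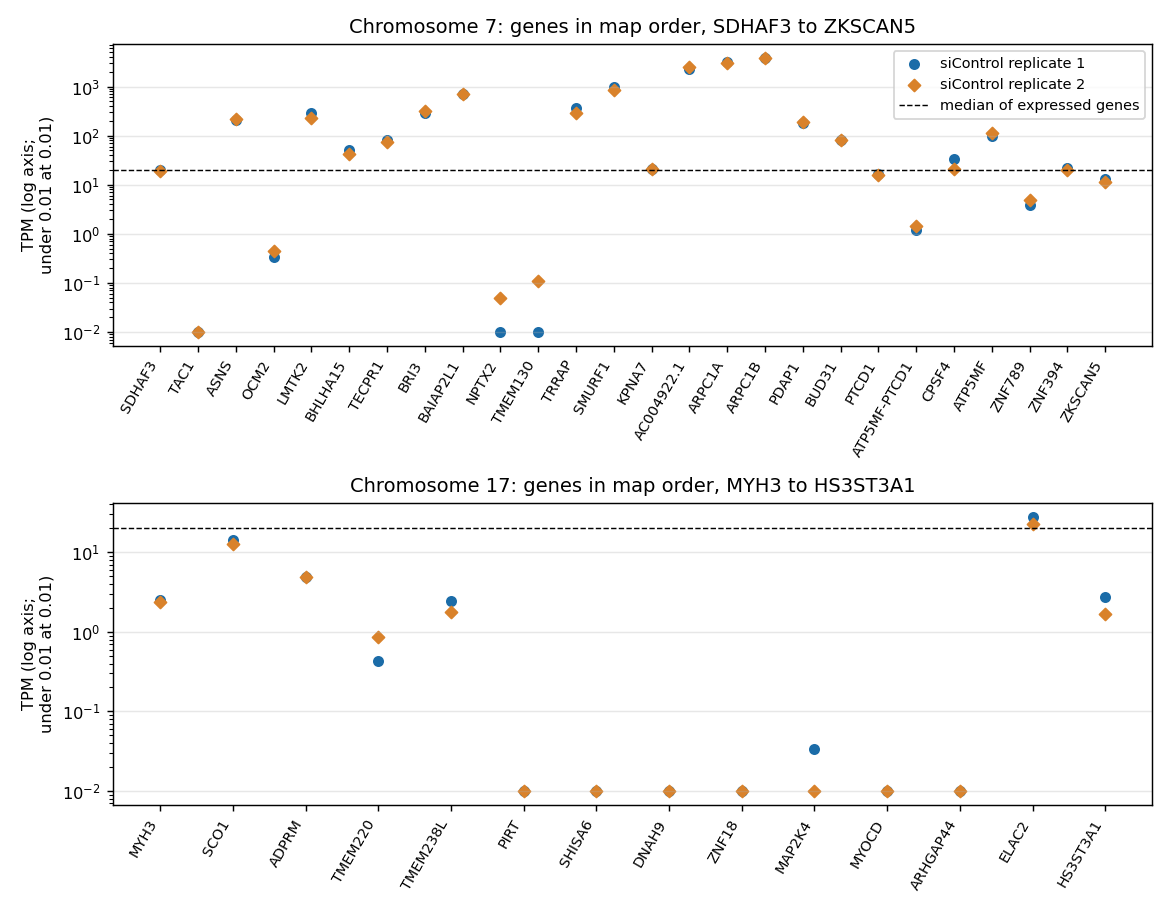
Level per length (TPM, log axis) of protein-coding genes in map order on chromosome 7 (upper panel) and chromosome 17 (lower panel), circles for replicate 1 and diamonds for replicate 2, with the median of expressed genes as a dashed line. On chromosome 7 the genes from LMTK2 to PDAP1 lie above the line apart from NPTX2 and TMEM130, and on chromosome 17 the genes from PIRT to ARHGAP44 lie at or near the drawn minimum.

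The sequence around the start sites was described for expressed and silent genes, without a test. RefSeq promoters (GRCh38.p14, 250 bases before and 50 after the start) were matched for 11292 nuclear genes with 1 entry. A promoter was counted as CpG-rich at a GC content of at least 50% and an observed to expected CpG ratio of at least 0.6, a CpG being a C followed by a G, the site of DNA methylation in human cells. Of expressed genes 84.8% had such a promoter, of low genes 40.4% and of genes not detected 28.4%, against 65.1% of all. Without olfactory receptor, keratin-associated, immunoglobulin and T-cell receptor genes the share among genes not detected was 32.7%. The word TATAAA on the gene's strand between bases -40 and -15 was found in 2.08% of expressed genes, 9.54% of genes not detected and 4.45% of all, and on the other strand in 0.744% of all. Of the 8 HOXD promoters matched, 7 were CpG-rich although the genes had 0 counts, and of 10 matched promoters of the other HOX clusters 7 were. The 250 bases before the start are shown for 6 genes, with CpG dinucleotides in capitals, because the genes were picked as different pairings of level and CpG content. The RefSeq start lies 199 bases from the nearest GENCODE transcript start of the gene for HOXD10, 31 bases for TMSB10 and at most 2 bases for the other 4. HOXA7, HOXD10, LDHB and LGALS4 also have GENCODE transcripts that start further upstream, and which start the cells use was not measured. TMSB10 is high with a CpG-rich promoter, LGALS4 is high with a CpG-poor one, HOXA7 and HOXD10 are a HOX pair, expressed and silent, with CpG-rich promoters, and LDHB and PNLIP (pancreatic lipase) are silent with fewer CpG.
TMSB10 (chr2:84905406-84905655, + strand): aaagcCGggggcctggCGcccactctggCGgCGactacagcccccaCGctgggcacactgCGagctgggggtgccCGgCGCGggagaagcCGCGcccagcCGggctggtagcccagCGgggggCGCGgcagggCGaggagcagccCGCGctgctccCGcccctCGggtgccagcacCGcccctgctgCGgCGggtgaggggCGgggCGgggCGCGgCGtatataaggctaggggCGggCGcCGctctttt
LGALS4 (chr19:38812946-38813195, - strand): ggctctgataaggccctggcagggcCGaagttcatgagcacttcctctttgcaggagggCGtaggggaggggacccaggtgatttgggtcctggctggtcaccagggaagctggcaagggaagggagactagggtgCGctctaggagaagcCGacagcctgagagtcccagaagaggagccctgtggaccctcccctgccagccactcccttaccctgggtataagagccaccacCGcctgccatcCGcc
HOXA7 (chr7:27156676-27156925, - strand): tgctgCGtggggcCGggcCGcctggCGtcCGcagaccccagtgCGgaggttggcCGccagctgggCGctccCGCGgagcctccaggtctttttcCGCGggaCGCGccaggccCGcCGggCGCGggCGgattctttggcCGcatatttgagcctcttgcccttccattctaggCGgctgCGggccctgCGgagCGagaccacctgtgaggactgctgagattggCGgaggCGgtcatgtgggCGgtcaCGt
HOXD10 (chr2:176116528-176116777, + strand): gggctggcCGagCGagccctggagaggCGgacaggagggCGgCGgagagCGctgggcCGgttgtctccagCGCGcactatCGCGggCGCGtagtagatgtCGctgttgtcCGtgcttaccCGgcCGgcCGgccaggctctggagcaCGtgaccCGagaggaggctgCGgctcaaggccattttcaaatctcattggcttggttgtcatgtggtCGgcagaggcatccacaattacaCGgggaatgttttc
LDHB (chr12:21657843-21658092, - strand): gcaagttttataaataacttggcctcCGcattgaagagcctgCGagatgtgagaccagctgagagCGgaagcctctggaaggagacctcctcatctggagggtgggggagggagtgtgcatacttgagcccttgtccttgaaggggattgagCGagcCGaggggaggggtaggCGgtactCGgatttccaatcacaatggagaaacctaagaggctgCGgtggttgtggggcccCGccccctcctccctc
PNLIP (chr10:116545681-116545930, + strand): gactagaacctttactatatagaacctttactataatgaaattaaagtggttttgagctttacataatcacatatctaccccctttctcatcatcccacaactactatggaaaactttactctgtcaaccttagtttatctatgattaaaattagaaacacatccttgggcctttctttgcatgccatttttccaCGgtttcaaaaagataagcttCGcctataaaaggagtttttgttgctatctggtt

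The numbers of CpG in these 250 bases were 31 for TMSB10, 6 for LGALS4, 28 for HOXA7, 23 for HOXD10, 9 for LDHB and 2 for PNLIP. LGALS4 reached 1102 TPM with the second lowest number of the 6, and HOXD10 had 0 counts with the third highest. As the 6 genes were picked for these pairings, they say nothing of how often each occurs.

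The 2 control libraries were close for most genes, with a gap larger than counting noise. The gap of a gene is log2 of replicate 2 over replicate 1, with 0.1 CPM added to each, over the 12254 genes of at least 1 CPM. Its median size was 0.14 and its SD 0.38, against a median counting SD of 0.0581, or 0.0821 if each fragment was counted 2 times. The SD of the gap pools genes of all levels and is raised by wide gaps (51 over 4-fold), so the 2 SDs are unlike measures. Between 1 and 10 CPM they were 0.56 and 0.161, and between 10 and 100 CPM 0.32 and 0.0554. In 76.04% of genes the libraries lay within 1.2-fold. A gap over 2-fold was found in 246 genes, 2.01% of those compared. Of these 105 were higher in replicate 2 (0.857%) and 141 higher in replicate 1 (1.15%). The paired libraries of the HMOX1si1 and HMOX1si2 groups had 240 (1.97%) and 259 (2.11%) such genes, so the control pair was close to the other pairs in this respect. By level the share over 2-fold was 3.81% between 1 and 10 CPM, 1.66% between 10 and 100 CPM and 0.817% between 100 and 1000 CPM, and none of the 86 genes above that.

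The gap moved with transcript length and base composition. In the bin (1 of 5 equal ones) with the shortest exon length (median 2126 bases) the median gap was 0.12, and 1858 of 2450 genes were higher in replicate 2. In the bin with the longest (median 10535 bases) it was -0.13, and 625 of 2449 were higher. By GC content the median gap went from -0.12 in the bin with the lowest GC to 0.11 in that with the highest. By list, 74 of 78 expressed ribosomal protein genes and 12 of 13 mitochondrial genes were higher in replicate 2, and 25 of 30 expressed driver genes were lower. Over all 12254 genes compared, 6184 were higher in replicate 2 and 6070 lower. The part of length and GC in these list values was not tested.

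**Figure D5:**
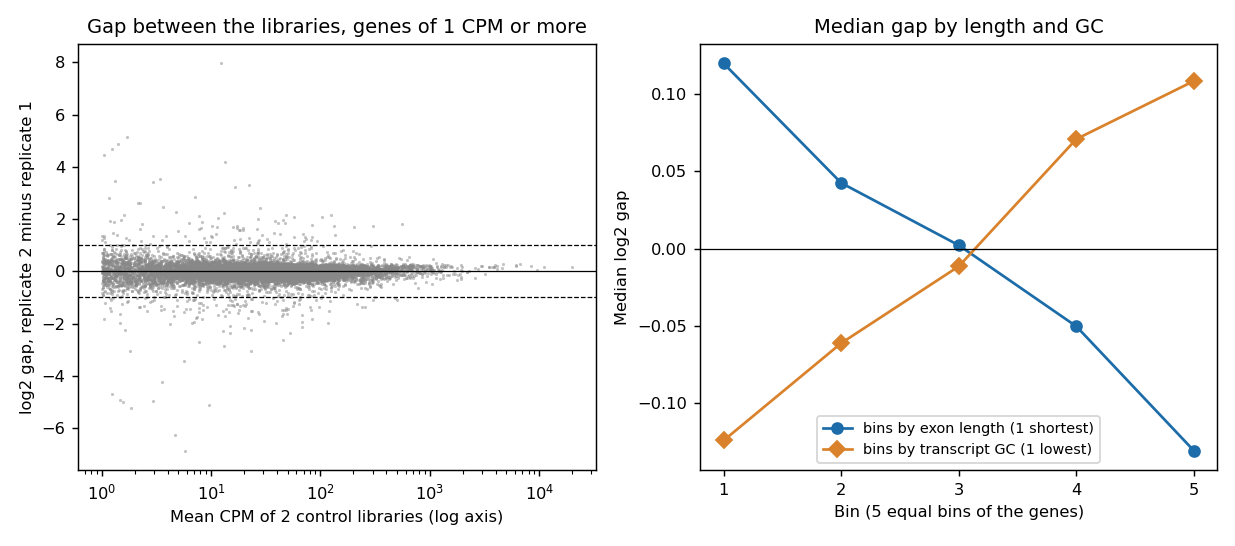
Left, the log2 gap (replicate 2 minus replicate 1) of each gene against its mean CPM (log axis), with dashed lines at 2-fold. Right, the median gap in 5 equal bins of the genes by exon length and by GC content: it goes from 0.12 to -0.13 with length and from -0.12 to 0.11 with GC.

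The widest gaps among genes of at least 10 CPM were of different kinds. Gene models that share exons with their neighbours led those higher in replicate 2. ISY1-RAB43 had counts of 0 and 1108, AC093525.2 48 and 1144, AC116366.3 144 and 1789, and PEDS1-UBE2V1 115 and 1350. Summed with the genes that share their exons, the gap of ISY1-RAB43 was 1.16, that of AC093525.2 0.26, that of AC116366.3 0.01 and that of PEDS1-UBE2V1 -0.23. SYS1-DBNDD2 (counts of 165 and 972) had a summed gap of 0.81. Such models were also among the widest gaps higher in replicate 1. POC1B-GALNT4 had counts of 849 and 140 and AL121594.1 922 and 214, with summed gaps of 0.22 and 0.21. Adding a higher neighbour makes a gap smaller by itself, so these sums alone do not show that counts moved between models. Over all genes a gap over 2-fold was found in 3.37% of those with a shared exon and 1.37% of those without. Genes without a shared exon also had wide gaps. C1GALT1C1, a chaperone of O-glycosylation, had 8.86 and 47.7 CPM, GNA12, a G protein subunit, 17.3 and 78.5 CPM, and DAG1 (dystroglycan) counts of 1640 and 9038, all higher in replicate 2. The tyrosine kinase FER (41.4 and 4.90 CPM), the zinc finger gene ZKSCAN1 (78.1 and 12.5 CPM), the cytokine receptor IL4R (87.6 and 16.8 CPM) and MDM4 (33.01 and 7.23 CPM) were higher in replicate 1. MDM2, whose exons overlap in position with those of the carboxypeptidase M gene, had 38.4 and 7.94 CPM, a gap of -2.26. Both genes summed had 110 and 73.1 CPM, a gap of -0.59. Most of that sum came from the neighbour, so the fall of MDM2 itself was not removed. With 2 libraries a wide gap in 1 gene cannot be assigned to either library.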

How the data were processed

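RNA from AsPC-1 cells was sequenced in 6 libraries, prepared with a Hieff NGS MaxUp mRNA kit per the labels' protocols, and 2 of them are described here. The authors deposited a table of whole numbers per gene and library, read here as estimated counts because of their values. For aligner, counter and strand the sources used here name nothing. Mouse builds (GRCm38, mm10) are listed, per the submitters' processing notes, although the gene identifiers are human. Of values from 1 to 10, 71.6% and 71.3% were even, against 50.03% and 50.5% of those over 100, so counting noise is also given for halved counts.

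CPM used TMM scaling within the group (edgeR 4.0.16, R 4.3.3; factors 1.01 and 0.992). TPM used exon lengths of GENCODE 29 (GRCh38), matched for 20224 of 20263 genes. Symbols came from the reference tables for 19761 genes and otherwise from GENCODE, and 39 genes were in neither. No statistical test was run on the data, because the control state is 1 group of 2 libraries. The members and the 41 gene lists were chosen with earlier results of these data known, and list counts are descriptions beside the values over all genes. Named genes are the 25 highest by CPM and per length, HMOX1, members of the lists, and the 8 widest gaps in each direction at 10 CPM or more; some genes that this rule names are not reported here. HOX genes, families, chromosome stretches and printed promoters were chosen after their values were seen. The gap rule, with library totals as scaling, was tried on simulated libraries. These held counting noise only and planted changes larger than the cut of 2-fold. The real gaps are wider than counting noise, so this trial does not bear on the genes found here. Alternatives were library totals, DESeq2 1.42.0 size factors, TMM over all 6 libraries, other minimum levels, another pseudocount, other lengths and each library alone.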

Additional observations from a re-analysis of the deposited data

How the results depend on the processing

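No paired analysis was possible because the results come from no test and concern 1 group. The number of expressed genes, 12244, stayed between 12143 and 14005 under 8 alternatives (library totals, DESeq2 size factors, TMM over all 6 libraries, each library alone, 10 counts in each library, 0.1 CPM and 1 TPM). The number of genes at 0 counts was 5189 in replicate 2 alone and 5264 in replicate 1 alone, against 4642 in both. The number of genes with a gap over 2-fold, 246, was 757 with no minimum level, 137 with a minimum mean of 10 CPM and 114 among genes without a shared exon, and between 203 and 251 with other scalings or a pseudocount of 1 CPM. Between 100 and 1000 CPM the SD of the gap was 9.76 times its median counting SD, and 6.90 times if counts are halved. Wide gaps of few genes raise these ratios. The median size of the gap there was 0.12, against a median counting SD of 0.0248, or 0.0350 if counts are halved. The number of lists with a median of at least 1 CPM was 30 of 41 under each alternative. For 18 single genes the other scalings moved the mean CPM by at most 0.698%. Depth limits a statement of absence to about 0.0369 CPM, or 0.0739 CPM if each fragment was counted 2 times, and with 2 libraries an SD is itself uncertain.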
